A study of Mus musculus with 6 samples.

Results

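The 9 genes Misp3, Serpini1, Pfn2, Stard10, Armcx2, Insl6, Rsph9, Bex3 and Slc30a4 were chosen by their measured intensities: their differences with trichostatin A (TSA), averaged over 3 pairs of arrays, were among the largest of all genes. They are 9 of the 8841 named genes on the array, each read by 1 probe. The arrays were hybridised with RNA of thioglycollate-elicited macrophages, cells that a sterile irritant draws into the peritoneal cavity, of 6-week-old C57BL/6 females. There was 1 array for each of the groups TSA, TSA + LPS, TSA + GW3965 + LPS, No treatment, LPS and GW3965 + LPS. TSA inhibits histone deacetylases, LPS is the bacterial lipopolysaccharide sensed by Toll-like receptor 4, and GW3965 activates the liver X receptors. Doses, times and the number of animals behind an array were not given in the sources used here, so the spread between these arrays may be technical.

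Histone deacetylases take acetyl groups off the tails of histones, and corepressor complexes bring them to genes that a cell type keeps off or low. Inhibitors such as TSA leave acetyl groups in place, and they are known for raising genes that the treated cell type uses little. Several of the 9 genes are best known from tissues other than macrophages. Serpini1 (neuroserpin), Pfn2 and Bex3 are best known from neurons, Insl6 from the testis and Rsph9 from motile cilia.

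A value is a scaled intensity, and every array's median over all probes was between 0.981 and 0.987 units. Values under an array's 25th percentile, which was 0.198 to 0.245 units, were set to it before the log2 step. A fold that uses such a floored value is a lower bound, written "at least". Of 12 macrophage markers on the array, all were measured, with a summed level of 1923, 2785 and 2134 units with TSA, TSA + LPS and TSA + GW3965 + LPS, against 2567, 2281 and 2432 units with No treatment, LPS and GW3965 + LPS. Among them limma called 0 higher and 2 lower with TSA, Cd14 by -0.83 (SE 0.20, adjusted p = 0.00768) and Cybb by -0.73 (SE 0.24, adjusted p = 0.0399), and Lyz2 and Ctss made up most of each sum. The defining surface marker Adgre1 was dim on every array, at 0.730 to 2.84 units. The 9 neutrophil markers on the array summed to 38.9, 83.6 and 74.96 units on the arrays with TSA, against 25.03, 52.9 and 53.3 units on their partners without it. The gene S100a8 made up most of each of these sums, so they say little about the other markers. Of the 5 neutrophil markers that were fitted, limma called S100a8 and Prtn3 higher and Csf3r lower with TSA, where 11.0% of all fitted genes were called higher and 7.54% lower. The granule genes Elane and Mpo stayed between 0.0374 and 0.281 units on all 6 arrays. The granule gene Prtn3 read 4.24, 1.31 and 1.18 units on the arrays with TSA, against 0.138, 0.108 and 0.134 units on their partners. Camp and Ltf were not called, and Ngp was not fitted. The part of neutrophils in the results below was not tested. In RNA of whole cultures, more cells of a type and more RNA per cell cannot be told apart.

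The name "near-silent" fitted only some of the 9 genes. Without TSA, Pfn2, Armcx2, Stard10 and Misp3 lay below the array median on all 3 arrays, and Stard10 alone lay below the floor on all 3. Slc30a4 lay below the median on 2 of the 3. Serpini1, Rsph9, Insl6 and Bex3 lay above the median on every array without TSA, so a signal was measured without the inhibitor. With TSA all 9 were above the median on all 3 arrays.

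**Figure D1:**
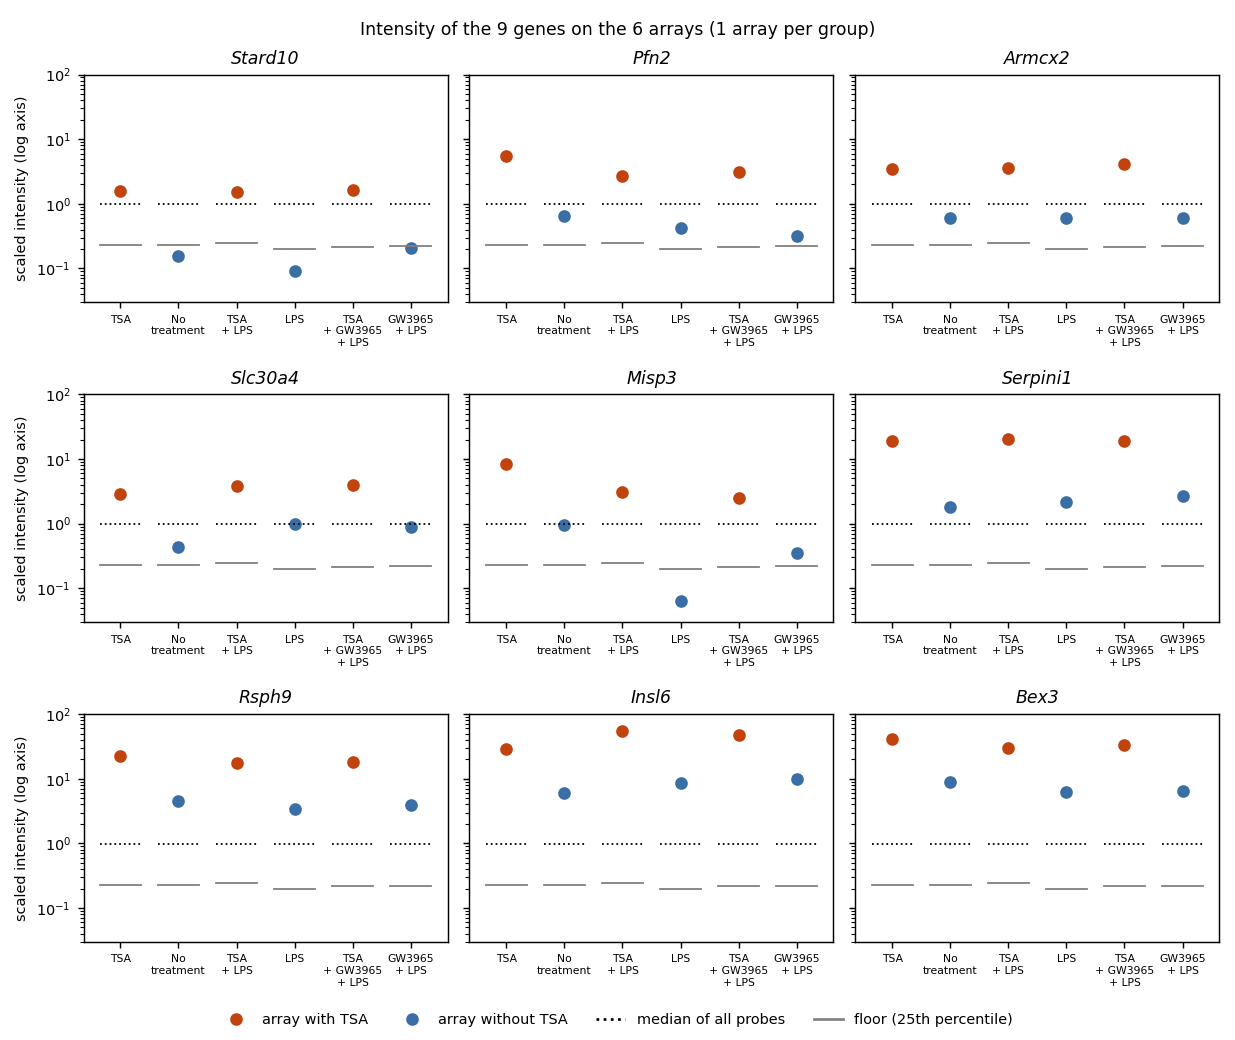
Scaled intensity (log axis) of each gene on the 6 arrays, with the array's median over all probes and its floor. In all 9 panels the 3 points with TSA lie above the 3 without it, and Serpini1, Rsph9, Insl6 and Bex3 lie above the median line throughout.

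The differences with TSA chose these genes, so they are described here without a test. All 9 were at least 2-fold higher in every pair, as were 2.05% of the 5080 genes measured above the median on at least 1 array. The 3 arrays with TSA all exceeded the 3 without it for all 9 genes, and for 15.1% of the 5080. The mean fold over the 3 pairs ran from 4.78 for Slc30a4 to at least 9.94 for Misp3.

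Serpini1 encodes neuroserpin, a secreted inhibitor of tissue plasminogen activator. It read 19.13, 20.1 and 19.0 units with TSA, TSA + LPS and TSA + GW3965 + LPS, against 1.83, 2.19 and 2.66 units with No treatment, LPS and GW3965 + LPS. The 3 TSA values lay close together, and the lowest of them was 7.15-fold above the highest value without TSA. Insl6, an insulin-like peptide that male mice need for making sperm, read 29.2, 55.2 and 46.7 units on the same TSA arrays, against 6.04, 8.58 and 10.1 units on their partners. Both Insl6 values with LPS beside TSA exceeded the one with TSA alone, and the same order held without TSA.

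Pfn2 is a profilin, a protein that binds actin monomers and feeds them to growing filaments. Its intensities were 5.43, 2.65 and 3.14 units with TSA, TSA + LPS and TSA + GW3965 + LPS, against 0.641, 0.424 and 0.312 units with No treatment, LPS and GW3965 + LPS. It stood highest in the pair without LPS, with and without TSA. Rsph9, a component of the radial spoke head of motile cilia, had 22.8, 17.7 and 18.1 units on the TSA arrays, against 4.47, 3.37 and 3.95 units on their partners. Its fold varied little, from 4.59 to 5.24 over the 3 pairs.

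Armcx2 and Bex3 belong to gene clusters of the X chromosome, Armcx2 to a family with armadillo repeats and Bex3 to the brain-expressed X-linked family, whose product binds the p75 neurotrophin receptor. Armcx2 read 3.45, 3.57 and 4.07 units with TSA, TSA + LPS and TSA + GW3965 + LPS, against 0.608, 0.610 and 0.603 units with No treatment, LPS and GW3965 + LPS. Its 3 values without TSA were the tightest of the set. Bex3 had 41.4, 29.9 and 33.8 units on the TSA arrays, against 8.996, 6.25 and 6.36 units on their partners. Both groups of Bex3 values were lower where LPS was present.

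Stard10 carries phosphatidylcholine and phosphatidylethanolamine between membranes. It read 1.59, 1.54 and 1.64 units with TSA, TSA + LPS and TSA + GW3965 + LPS, against 0.153, 0.0922 and 0.210 units with No treatment, LPS and GW3965 + LPS. All 3 values without TSA were under the floor, so its folds were at least 6.96, at least 7.80 and at least 7.39. Slc30a4 encodes ZnT4, which moves zinc into vesicles and into milk. It had 2.83, 3.86 and 3.89 units on the TSA arrays, against 0.436, 1.0001 and 0.889 units on their partners. Its smallest fold, 3.86, was in the pair with LPS, whose array without TSA was its brightest without the inhibitor.

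Misp3 had the widest spread. It read 8.49, 3.08 and 2.47 units with TSA, TSA + LPS and TSA + GW3965 + LPS, against 0.945, 0.0635 and 0.351 units with No treatment, LPS and GW3965 + LPS. The value with LPS was under the floor, and the fold there was at least 15.6, against 8.98 in the pair without LPS and 7.03 in the pair with GW3965. The standard deviation of its log2 difference over the 3 pairs was 0.59, with a median of 0.26 over the 9 genes and 0.33 over all 5080. With the floor at the 10th percentile it was 1.35. The 0.08 of Stard10 is set by the floors of its 3 arrays without TSA and is no measure of spread, and it was 0.56 with the lower floor.

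**Figure D2:**
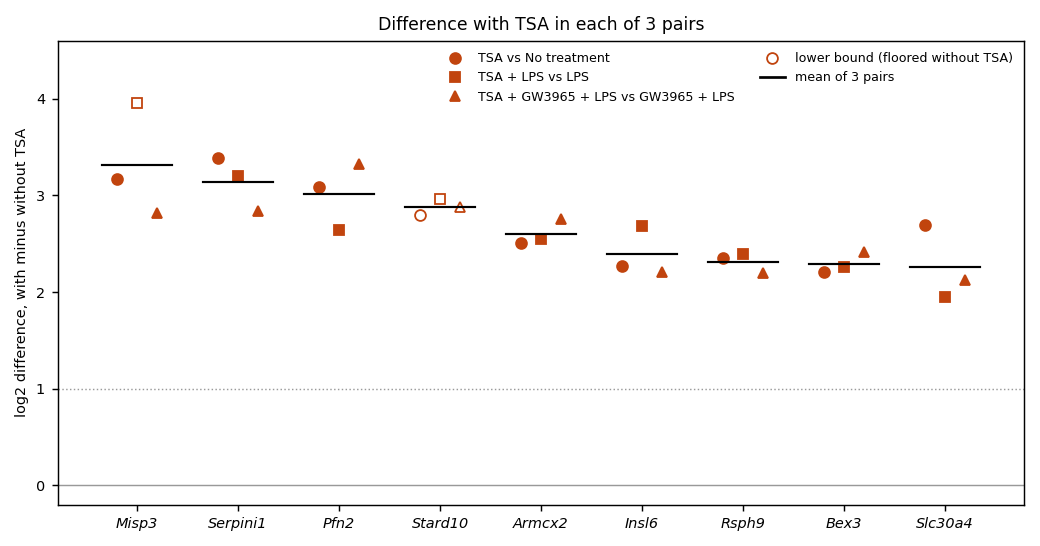
Log2 difference with TSA for each gene in each of 3 pairs (symbols), with the mean over pairs (bar). Open symbols are lower bounds. All 27 symbols lie above the dotted line at 1, which is 2-fold, and Misp3 has the widest spread.

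The set ends where the ranking gives no gap. Slc30a4, the lowest member, had a mean log2 difference of 2.26 ± 0.39 (SD, n = 3 pairs) at rank 12 of 5080. The next were Svip at 2.25 ± 0.20, Mycbp at 2.23 ± 0.59 and Gipc2 at a lower bound of 2.23. Prtn3, Apbb1 and Nrtn stood at ranks 3, 7 and 9 and are not among the 9 genes. Apbb1 and Nrtn read 0.938 and 0.745 units with TSA + GW3965 + LPS, below that array's median.

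Whether LPS changed the level of these genes was tested on a contrast that did not choose them. All 6 arrays entered 1 limma fit in which the effects of TSA, GW3965 and LPS add up on the log2 scale, and p-values were adjusted over all 5080 genes by the Benjamini-Hochberg method. Misp3 fell with LPS by 1.86 log2 units (limma SE 0.32, adjusted p = 0.000231), in 2 of 2 pairs. Its level with TSA + LPS was 2.76-fold lower than with TSA alone, and it was at least 4.78-fold lower with LPS than with No treatment. Thus 1 of 9 genes fell and 0 rose by limma, where 7.11% of the 5080 genes fell and 12.3% rose, and 4 of the 9 had an unadjusted p under 0.05, as did 30.3% of the 5080. The size of the Misp3 effect depends on the floor, since its value with LPS was floored and all its values without TSA lay below the median. It was -2.53 with the floor at the 10th percentile, and -0.73 with an adjusted p of 0.316 with the floor at the array median. Over 9 settings that adjusted p ran from 3.67e-07 to 0.316.

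The other 8 genes did not pass. Slc30a4 and Insl6 were nearest to it on the higher side, with log2 effects of 0.82 (SE 0.29, adjusted p = 0.0573, limma) and 0.71 (SE 0.26, adjusted p = 0.0576). Slc30a4 was 1.37-fold higher with TSA + LPS than with TSA and 2.29-fold higher with LPS than with No treatment. Insl6 was 1.89-fold and 1.42-fold higher in the same comparisons. Slc30a4 passed after cyclic loess (limma adjusted p = 0.0456), but its effect was 0.24 with a median floor (adjusted p = 0.589). Insl6 passed with no filter on low values (limma adjusted p = 0.0369), with up to 0.203 over 9 settings. On the lower side Pfn2 had an effect of -0.81 (SE 0.30, adjusted p = 0.0694), Bex3 of -0.50 (SE 0.25, adjusted p = 0.195) and Rsph9 of -0.39 (SE 0.25, adjusted p = 0.342). Bex3 passed after quantile normalization, at -0.74 (limma adjusted p = 0.0464), with up to 0.367 over 9 settings. Serpini1, Armcx2 and Stard10 had effects of 0.16, 0.03 and -0.12, smaller than their SEs of 0.26, 0.29 and 0.36. Stard10 was under the floor with LPS and with No treatment, so no direction was measured in that pair. In the other 8 genes the 2 LPS pairs differed in the same direction, 4 higher and 4 lower. They did so in 65.8% of the 5080 genes, floored values included, 34.3% higher and 31.6% lower. Of the 9, 4 genes, Pfn2, Armcx2, Stard10 and Misp3, passed the level filter through arrays with TSA alone.

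**Figure D3:**
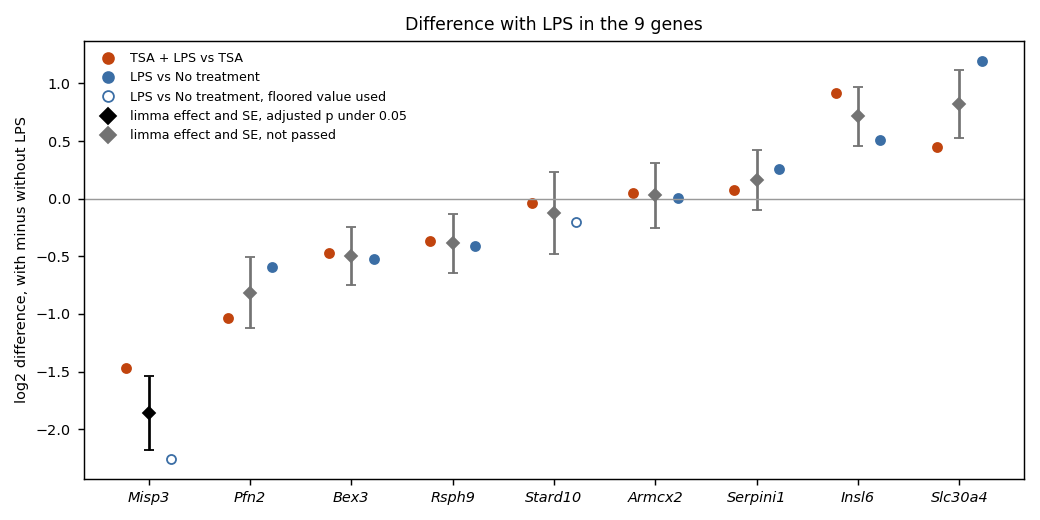
Log2 difference with LPS for the 9 genes, in the pair with TSA and the pair without it (circles), and as limma's effect with its SE (diamonds). Misp3 lies farthest below 0 and is the one gene past the threshold, while Insl6 and Slc30a4 lie above 0.

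Whether the rise with TSA depended on LPS was tested by adding a TSA by LPS product term, which leaves 1 residual degree of freedom. By limma 0 of 9 genes passed, with 0.236% of the 5080 genes called, 0.0394% higher and 0.197% lower. An unadjusted p under 0.05 was reached by 0 of the 9 and by 5.02% of the 5080. The terms ran from -0.66 for Slc30a4 to 0.22 for Misp3, with SEs of 0.45 to 0.69 log2 units, so a difference in response of that size was not detectable with these arrays. The same 3 pairs had chosen the genes. A TSA by GW3965 term likewise called 0 of 9 genes, and 0.0591% of all genes, 0.0394% higher and 0.0197% lower. For that term 0 of the 9 and 2.78% of the 5080 had an unadjusted p under 0.05. The largest was that of Misp3, at -0.75 (SE 0.58). Both terms of Misp3 use its floored value with LPS, and both terms of Stard10 use floored values on all 3 arrays without TSA. For these genes the terms depend on the floor.

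GW3965 on top of LPS was also tested, and limma called 0 of the 9 genes. It called 0.0787% of the 5080 genes, 0.0591% higher and 0.0197% lower. An unadjusted p under 0.05 was reached by 0 of the 9 and by 2.76% of the 5080. The effects ran from -0.10 for Pfn2 to 0.26 for Misp3, with SEs of 0.25 to 0.36. Misp3 was at least 1.78-fold higher with GW3965 + LPS than with LPS, whose value was floored, and 1.25-fold lower with TSA + GW3965 + LPS than with TSA + LPS.

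The bases upstream of the start sites are shown because genes with similar TSA differences had windows of very different CpG content. Sequences are from RefSeq, build GRCm38.p6, and cover the 250 bases before the start, written 5′ to 3′ on the gene's strand with every CG dinucleotide in capitals. The table held 8 of the 9 genes, all but Insl6. Pfn2 lies at chr3:57847758-57848007, minus strand, and Slc30a4 at chr2:122702664-122702913, minus strand. Armcx2 lies at chrX:134809222-134809471, minus strand, Stard10 at chr7:101316836-101317085, plus strand, and Serpini1 at chr3:75557243-75557492, plus strand.
Pfn2: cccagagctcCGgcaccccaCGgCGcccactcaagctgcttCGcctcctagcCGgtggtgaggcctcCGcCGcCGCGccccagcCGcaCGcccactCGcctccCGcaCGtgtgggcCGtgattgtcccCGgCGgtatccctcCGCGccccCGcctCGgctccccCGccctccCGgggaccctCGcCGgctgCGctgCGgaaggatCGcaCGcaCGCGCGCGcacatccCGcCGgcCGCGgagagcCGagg
Slc30a4: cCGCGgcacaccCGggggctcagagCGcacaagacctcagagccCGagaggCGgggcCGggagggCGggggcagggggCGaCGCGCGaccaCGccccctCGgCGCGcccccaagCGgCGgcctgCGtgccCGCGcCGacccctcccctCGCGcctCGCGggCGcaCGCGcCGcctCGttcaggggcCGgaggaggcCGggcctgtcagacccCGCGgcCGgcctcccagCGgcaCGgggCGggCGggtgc
Armcx2: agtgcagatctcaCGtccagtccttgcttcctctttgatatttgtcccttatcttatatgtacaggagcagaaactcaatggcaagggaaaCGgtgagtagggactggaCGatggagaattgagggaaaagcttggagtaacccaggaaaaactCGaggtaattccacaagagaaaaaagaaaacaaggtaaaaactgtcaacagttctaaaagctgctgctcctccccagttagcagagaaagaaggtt
Stard10: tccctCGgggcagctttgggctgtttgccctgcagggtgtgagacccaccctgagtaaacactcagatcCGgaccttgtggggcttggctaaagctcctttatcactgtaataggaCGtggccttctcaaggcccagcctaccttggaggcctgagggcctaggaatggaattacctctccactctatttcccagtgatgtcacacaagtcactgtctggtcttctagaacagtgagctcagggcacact
Serpini1: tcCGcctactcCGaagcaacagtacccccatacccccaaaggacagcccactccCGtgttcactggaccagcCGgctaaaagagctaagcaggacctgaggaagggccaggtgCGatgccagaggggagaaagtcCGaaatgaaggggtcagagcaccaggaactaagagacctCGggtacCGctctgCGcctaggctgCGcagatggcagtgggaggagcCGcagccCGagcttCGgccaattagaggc
The windows of Slc30a4 and Pfn2 held 40 and 38 CG dinucleotides, those of Serpini1 and Misp3 13 each, Rsph9 10, Bex3 9, Armcx2 4 and Stard10 3. Among 4144 of the 5080 measured genes with such a window, the median was 15, with quartiles of 8 and 22. Pfn2, with 38, was higher with TSA by a mean of 3.02 log2 units, and Stard10, with 3, by at least 2.88.

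Short motifs were looked for on both strands of these windows. The GC box GGGCGG was present in 5 of the 8 (Pfn2, Bex3, Rsph9, Slc30a4 and Misp3) and in 55.8% of the 4144 windows, and 2 of the matches in Slc30a4 overlap. CCAAT was present in Serpini1, Bex3 and Rsph9, and in 36.0% of windows. The letters TATAAA were in 0 of the 8 and in 7.70% of windows. GGACAGC, 1 part of the element bound by the neuronal repressor REST, was in Serpini1 alone and in 5.82% of windows. The other part of that element was in 0 of the 8 and in 6.13% of windows. The full element, searched as an exact match, was in 0 of the 8 and in 0 of all 27025 windows in the reference. Its absence from the 8 therefore says nothing particular about them. The other motifs searched were in 0 of the 8, except an E-box, in Pfn2 alone and in 9.36% of windows. A match is a description of the letters and no evidence of binding.

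None of the nearest measured genes on either side of the 9 was at least 2-fold higher in every TSA pair, which 2.05% of the 5080 genes were. For each of the 9, the nearest measured gene on either side was taken from the RefSeq order in GRCm38.p6, which gave 18 neighbours, none of them one of the 9. Of these, limma called 1 higher and 1 lower with TSA, and 16 did not pass, where 11.0% of the 5080 genes were called higher and 7.54% lower. Their median of the mean log2 difference was 0.01, as over all genes. Only 5 of the 18 lie within 10 kb, and some are far, such as Tceal8 at 1360 kb from Armcx2 with 22 protein-coding genes between them and Kcne3 at 1132 kb from Stard10 with 18. The difference between a gene and its neighbour was not tested.

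Serpini1 lies at chr3:75557493-75642523, and its neighbour Pdcd10, a protein of the signalling complex mutated in cerebral cavernous malformation, lies 0.64 kb away. Pdcd10 read 14.1, 16.8 and 22.5 units with TSA, TSA + LPS and TSA + GW3965 + LPS, against 7.35, 19.4 and 14.2 units with No treatment, LPS and GW3965 + LPS. Its groups overlap, with an effect of 0.47 (SE 0.23, limma adjusted p = 0.178), and it passed without the pair TSA + LPS and LPS (adjusted p = 0.00945). Pfn2, at chr3:57841895-57847757, lies 6.47 kb from Rnf13, a ubiquitin ligase of endosomes, which had an effect of 0.02 (SE 0.21, limma adjusted p = 0.96).

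Rsph9, at chr17:46122038-46144242, overlaps the span of the mitochondrial ribosomal protein gene Mrps18a. Mrps18a was lower with TSA in 3 of 3 pairs and did not pass, at -0.60 (SE 0.22, limma adjusted p = 0.0642, with 0.0274 to 0.299 over 11 settings). Insl6, at chr19:29321354-29325318, lies between the kinase gene Jak2, 8.26 kb away, and Cd274, which encodes the checkpoint ligand PD-L1, 36.8 kb away. Neither was called for TSA, at -0.11 and -0.26. Both rose with LPS, by 2.94 (SE 0.29, limma adjusted p = 1.88e-07) and 2.27 (SE 0.26, adjusted p = 1.32e-06), beside the 0.71 of Insl6 that did not pass.

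On the X chromosome Armcx2 lies at chrX:134804142-134809221 and Bex3 at chrX:136270253-136271978, 1461 kb apart. Armcx3, the neighbour of Armcx2 at 42.7 kb and a member of the same family, rose by 0.74 with TSA (SE 0.22, limma adjusted p = 0.0285, higher in 3 of 3 pairs), but not without the pair TSA and No treatment, without the pair with GW3965 or with a median floor (0.0017 to 0.313 over 11 settings). Bex1, 54.7 kb from Bex3 and of the same family, did not pass, at -0.21. Bex1 read 32.4, 9.67 and 11.7 units with TSA, TSA + LPS and TSA + GW3965 + LPS, against 42.9, 10.8 and 12.2 units with No treatment, LPS and GW3965 + LPS. The neighbour that fell was Adgre5, an adhesion receptor 269 kb from Misp3 (chr8:84010228-84011720), at -1.10 (SE 0.22, limma adjusted p = 0.00212).

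**Figure D4:**
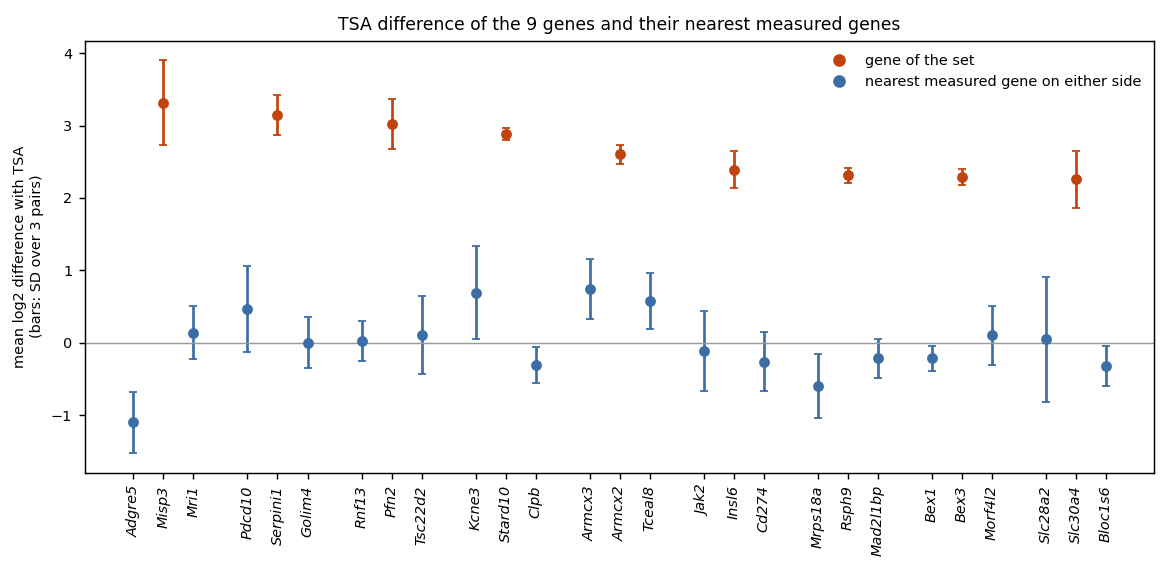
Mean log2 difference with TSA over 3 pairs, with the SD over pairs, for each of the 9 genes and the nearest measured gene on either side. The 9 genes lie between 2.26 and 3.31, their neighbours between -1.10 and 0.74.

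Relatives of the 9 genes and classes of genes they belong to were examined in 10 lists with 71 measured genes, none of them one of the 9. limma called 11 higher and 7 lower with TSA, against 11.0% and 7.54% of all genes, and the median difference was 0.11, compared with 0.01 over all 5080. Among 8 profilins and actin monomer binders 1 rose and 3 fell. Pfn1, the profilin that most cells use, fell by 0.87 (SE 0.21, limma adjusted p = 0.00769, lower in 3 of 3 pairs), the opposite direction to Pfn2. Pfn1 read 64.8, 79.0 and 109.8 units with TSA, TSA + LPS and TSA + GW3965 + LPS, against 147.1, 169.9 and 137.2 units with No treatment, LPS and GW3965 + LPS. The groups do not overlap, and with a median floor the effect was the same -0.87 (SE 0.21), with a limma adjusted p of 0.0518. Cfl2, a cofilin that severs filaments, rose by 0.74 (SE 0.22, limma adjusted p = 0.0269, higher in 3 of 3 pairs, with 0.00296 to 0.278 over 11 settings). Cap1, a cyclase-associated actin regulator, fell by 0.72 (SE 0.24, limma adjusted p = 0.0433, lower in 2 of 3 pairs, with 0.00855 to 0.167 over 11 settings).

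Among 9 serpins and genes of plasminogen activation 3 rose and 2 fell, with a median of 0.38. Serpinb1a, an inhibitor of neutrophil proteases, rose by 1.78 (SE 0.21, limma adjusted p = 1.93e-05) and Serpinb6b by 1.27 (SE 0.21, adjusted p = 0.000457), each higher in 3 of 3 pairs. Plaur, the urokinase receptor, fell by 1.02 (SE 0.23, limma adjusted p = 0.0049, lower in 3 of 3 pairs), but not without the pair TSA and No treatment (adjusted p = 0.0515). Of 5 zinc transporters and metallothioneins 1 rose, the zinc-binding metallothionein Mt2, by 1.30 (SE 0.21, limma adjusted p = 0.000417, higher in 3 of 3 pairs). Of 4 Armcx, Bex and Tceal relatives Armcx3 rose and 3 did not pass.

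In 4 lists limma called 0 genes. These were 3 START domain lipid transfer proteins, with 1 at an unadjusted p under 0.05, 6 genes of the radial spoke and axoneme with 1, 3 of the relaxin and insulin family with 0, and 6 neuronal genes of the REST target type with 1. Their medians were 0.16, 0.01, -0.33 and 0.10. Farthest from 0 were Stard3, a cholesterol carrier of late endosomes, at -0.52 (SE 0.21), the ciliary protein gene Cfap20 at 0.45 (SE 0.20), the growth factor Igf1 at -0.39 (SE 0.20) and the neuronal ubiquitin hydrolase Uchl1 at 0.59 (SE 0.28). Of 28 neuronal genes on the array 22 lay below the median on all 6 arrays, and of 19 axoneme genes 13 did. Foxj1, the regulator of motile cilia, stayed between 0.0488 and 0.228 units.

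Of 11 testis and germ line genes 2 rose and 9 did not pass. Tex15, a gene of meiotic recombination in the testis, read 1.08, 0.604 and 0.665 units with TSA, TSA + LPS and TSA + GW3965 + LPS, against 0.253, 0.0869 and 0.117 units with No treatment, LPS and GW3965 + LPS. It rose by a fitted 1.76 (SE 0.33, limma adjusted p = 0.00117, higher in 3 of 3 pairs), a value that depends on the floor since 2 arrays were under it, and by 0.05 (adjusted p = 0.798) with a median floor. Spa17, a sperm surface protein, rose by 1.197 (SE 0.23, limma adjusted p = 0.00143, 3 of 3 pairs). Of 16 histone deacetylases and corepressor subunits 3 rose and 2 fell. Hdac6, a cytoplasmic deacetylase, rose by 0.77 (SE 0.23, limma adjusted p = 0.0275, higher in 3 of 3 pairs, with 0.00701 to 0.169 over 11 settings). Mbd3, a subunit of the NuRD complex, and Gps2, a subunit of the NCoR complex, fell by 1.25 (SE 0.26, limma adjusted p = 0.00254) and 1.10 (SE 0.26, adjusted p = 0.00754), each lower in 3 of 3 pairs. Gps2 did not pass with a median floor (adjusted p = 0.0761).

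**Figure D5:**
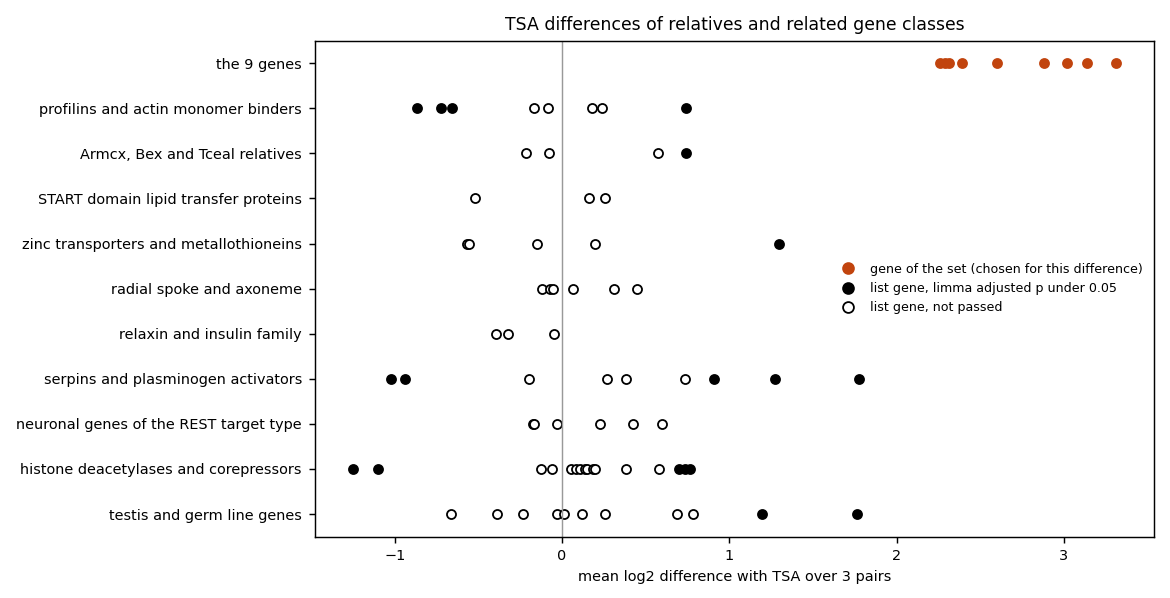
Mean log2 difference with TSA over 3 pairs for the 9 genes and for the measured genes of 10 lists, with filled black points for genes past limma's threshold. No list gene reaches the 2.26 of the lowest of the 9, and the points of most lists lie on both sides of 0.

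The genes whose profile over the 6 arrays lay nearest to the mean profile of the 9, by root mean square distance of log2 values centred per gene, were Gipc2, Tspan13, Apbb1, Nrtn, Cd24a, Tnfrsf22, Gsta4 and Svip. The distances ran from 0.296 to 0.38 log2 units. Within the set, Armcx2 lay at 0.15 from the mean profile and Misp3 at 0.828. Stard10, which also entered the mean profile, lay at 0.12, but its profile holds 3 floored values and that distance depends on the floor. Cd24a, a glycoprotein of immature leukocytes, was well above the median on all arrays, with 43.1, 42.3 and 58.1 units on the TSA arrays, against 9.13, 12.0 and 9.75 units on their partners. Gipc2 was dim without TSA, with 1.41, 0.942 and 0.784 units on the TSA arrays, against 0.193, 0.1002 and 0.205 units on their partners.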

How the data were processed

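The deposited table holds 1 intensity per probe and array, on a linear scale, from single-colour arrays with biotin label per the labels. The authors' scaling and background steps are not given in the sources used here; all array medians are near 1, and 19 to 28 values per array are at or below 0. Of 10076 probes, 8983 had 1 gene symbol in the platform annotation, and 1092 had none. For the 138 genes read by more than 1 probe, the brightest was kept.

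Values were floored at each array's 25th percentile and log2-transformed. Genes at or above the median on at least 1 array (5080) were fitted with limma 3.58.1 (R 4.3.3), with an intensity trend, 2 residual and 16.9 prior degrees of freedom, two-sided, at an adjusted p under 0.05. The fit was tested on simulated data, made of normal noise around each gene's mean log2 level, with no TSA difference and no floor applied. It recovered 61.1% of 2-fold changes for LPS, 63.4% for GW3965 and 9.55% for TSA by LPS. Of 4-fold changes it recovered 99.8%, 99.6% and 68.6%. The share of false calls was 5.31% to 6.67%. These rates need not hold for genes with floored values, such as Stard10 and Misp3. Because each group has 1 array, the model assumes that the treatments add up. The number of arrays limits the precision. Named genes are the 9, the 3 called genes farthest from 0 in each list (1 where none was called), the 8 nearest profiles, the 3 next in rank and the nearest measured neighbours. Any other gene named was chosen after its values were seen. The members and lists were chosen with earlier results of these data known. Alternatives covered scaling, floor, filter, probes, prior variance and leaving out a pair.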

Additional observations from a re-analysis of the deposited data

Results flagged for a closer look

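Probes without a gene symbol were used in no comparison above. Of 1092 such probes, 589 reached the median on at least 1 array, and 9 of these were at least 2-fold higher in every TSA pair, which is 1.53% of them, against 2.05% of named genes. Only 1 of the 9 lay below the median on all 3 arrays without TSA and at or above it on all 3 with TSA. They stand here because they show a signal above the arrays without TSA in data that no comparison used.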

How the results depend on the processing

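The count of the 9 genes called for LPS, 1 here, was 2 after quantile normalization, 2 after cyclic loess, 2 with no filter on low values and 0 with a median floor. The counts for GW3965, for TSA by LPS and for TSA by GW3965 were 0 in each setting tried. All 9 genes were at least 2-fold higher in every TSA pair in each setting but 1: with the floor at the median there were 8, and Stard10 had a mean of 0.70 in place of 2.88. The same floor lowered the means of Pfn2, Armcx2, Slc30a4 and Misp3 to 1.86, 1.91, 1.82 and 2.03, since their values without TSA lie below it. The means of Serpini1, Insl6, Rsph9 and Bex3 stayed between 2.21 and 3.29. Of the list genes, 18 were called for TSA, 8 with the floor at the median and 11 without the pair TSA and No treatment; leaving out either of the other pairs gave 18 and 13. The TSA effect of the additive fit is already the mean over the 3 matched pairs, and no further replicate block could be fitted with 1 array in each group. The LPS term cannot be fitted without the pair TSA and No treatment, or apart from GW3965 without the pair TSA + LPS and LPS.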

Other observations

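By a stricter reading of "switched on", 20 of the 5080 genes lay below the median on all 3 arrays without TSA, at or above it on all 3 arrays with TSA, and were at least 2-fold higher in every pair. Pfn2, Armcx2, Stard10 and Misp3 are 4 of them. Among the other 16, named after their values were seen, were the small GTPase Rac3 at a mean log2 difference of 2.00 ± 0.17 (SD, n = 3 pairs), the signal transducer Stat4 at 1.99 ± 0.43, the stress-induced Sesn3 at 1.83 ± 0.11, the hyaluronan synthase Has1 at 1.66 ± 0.31 and the leukotriene receptor Cysltr1 at 1.39 ± 0.16. The mirror image, above the median without TSA and below it with TSA, held 2 genes, Parvg and Srm. These classes were defined after the data were seen and carry no test. Of the 104 genes at least 2-fold higher in every TSA pair, 43 lay at or above the median on all 3 arrays without TSA and 36 below it on all 3. On the X chromosome lay 7 of the 104 (6.73%) and 163 of 5077 placed genes (3.21%), 2 of the 7 being Armcx2 and Bex3.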
